A study of Mus musculus with 34 samples.

Results

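The Obox genes are a family of mouse homeobox genes that lie together on chromosome 7. The members described here are Obox1, Obox2, Obox3, Obox5 and Obox6, taken by gene symbol, and they are 5 of the 49686 symbols listed for zygotes and late 2-cell embryos. Obox1, Obox2 and Obox5 are grouped as the maternal members, whose transcripts are stored in the oocyte, and Obox3 and Obox6 as the embryonic members, which are transcribed by the embryo. All 5 symbols were found at every stage. The early tables held 7 Obox symbols in all, the other 2 being Obox7 and Obox8.

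Homeobox genes code for transcription factors with a homeodomain, a DNA-binding fold. OBOX proteins carry a homeodomain of the kind that recognises TAATCC or its reverse complement GGATTA, and they are known for roles in oocytes and in the first wave of transcription from the embryo's own genome, which in the mouse is strongest at the late 2-cell stage. At that same time the oocyte's stored transcripts are largely degraded, so a family with both maternal and embryonic members changes its makeup between the zygote and the late 2-cell stage.

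Each library was 1 mouse embryo with the zona pellucida removed, amplified with SMART-seq2, cut with Tn5 and sequenced on a HiSeq X-10. Every embryo had been injected as a zygote with mRNA for CHK1, the checkpoint kinase that delays the cell cycle after DNA damage, either as the wild-type form (WT) or as the mutant R442Q. Of the zygotes 5 had received WT and 6 had received R442Q mRNA, of the late 2-cell embryos 4 and 5, and of the blastocysts 7 and 7. The zygotes and late 2-cell embryos are labelled as having no further treatment. All 14 blastocysts had been cultured in 30 nM of a CHK1 inhibitor. Groups of uninjected embryos and of blastocysts without inhibitor are not among the samples analysed here, so WT means embryos overexpressing WT CHK1. The labels give no mother, injection session or date, so p-values measure the spread between these embryos only.

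Counts per embryo summed to 7183632 to 11296522 in zygotes and 5727956 to 8916343 in late 2-cell embryos. The summed FPKM (a level corrected for transcript length and library size) of all genes was 733250 ± 14090 (SD, n = 4) for WT and 893448 ± 62796 (SD, n = 5) for R442Q at the late 2-cell stage, so late 2-cell levels are set against each other between the injected forms in CPM (counts scaled to the library size), or as shares within an embryo. Chek1, which the injected mRNA also encodes, stood at 4593 to 8653 CPM in WT and 5597 to 7171 CPM in R442Q zygotes, and these counts do not separate the 2 forms. Stage markers followed the labels for zygotes and blastocysts: 5 oocyte markers summed to 1338 to 2001 FPKM over all zygotes and to at most 4.28 FPKM in any blastocyst, and 7 trophectoderm markers to 1250 to 24288 FPKM in blastocysts. The 6 late 2-cell markers summed to 79.5 to 210 FPKM in zygotes, a range that overlaps the lowest WT late 2-cell embryo at 117 FPKM. The 9 cumulus cell markers summed to at most 21.8 FPKM in any embryo, with Pgr at 0 in every zygote and late 2-cell embryo.

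The members sit in one cluster and resemble each other, which bears on every value below. In GRCm38, Obox2 lies at chr7:15388721-15398545 and Obox1 at chr7:15388948-15556866, both on the plus strand. Obox3 lies at chr7:15479825-15639902 on the minus strand, Obox5 at chr7:15750131-15759800 on the plus strand and Obox6 at chr7:15833241-15839678 on the minus strand. The annotated span of Obox1 covers most of Obox2 and part of Obox3. Obox1 and Obox2 lie on the same strand, so strand cannot tell reads of their overlapping exons apart. Obox1 and Obox3 lie on opposite strands, but whether counting used strand is not given in the sources used here. The upstream DNA shows the resemblance. The windows below, from RefSeq on GRCm38.p6, are shown because 2 genes whose transcripts fell after the zygote stage and 1 whose transcript rose share nearly the same core. Each has 152 bases, is written 5′ to 3′ on the gene's own strand and ends 5 bases after the motif TATATAA. Capitals mark TATATAA and, in Obox3, GGATTA.
Obox1, chr7:15547098-15547249, plus strand: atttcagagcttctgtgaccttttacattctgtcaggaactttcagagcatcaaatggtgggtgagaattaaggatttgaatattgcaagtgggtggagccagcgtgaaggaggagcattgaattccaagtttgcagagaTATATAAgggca
Obox5, chr7:15750199-15750350, plus strand: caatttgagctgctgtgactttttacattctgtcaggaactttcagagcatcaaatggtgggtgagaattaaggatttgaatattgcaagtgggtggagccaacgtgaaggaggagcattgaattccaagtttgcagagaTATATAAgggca
Obox3, chr7:15639796-15639947, minus strand: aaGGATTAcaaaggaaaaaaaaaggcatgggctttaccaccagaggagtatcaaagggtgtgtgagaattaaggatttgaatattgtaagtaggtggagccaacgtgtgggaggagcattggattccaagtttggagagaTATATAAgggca

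The windows of Obox1 and Obox5, both maternal, were 94.7% identical and shared an exact run of 82 bases. Obox3, the embryonic member, was 69.7% identical to Obox1 and 71.1% to Obox5 over the whole window, but 91.2% and 92.5% identical over the last 80 bases. The maternal and embryonic windows thus differed mainly in their upstream part. Searched on both strands of the RefSeq windows, which run from 250 bases before to 50 bases after each annotated start, TATATAA began 19 bases before the start of Obox1, 30 before that of Obox3 and 31 before that of Obox5. It occurred in 3.24% of all 32851 windows. GGATTA, the homeodomain motif, was found in the window of Obox3 alone among these 3, beginning 168 bases before the start, and in 7.06% of all windows. The 2 motifs did not overlap. RefSeq windows were matched for 4 of the 5 members. That of Obox2 held neither motif, and Obox6 was not among them.

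The transcripts also share sequence. Of the 50-base stretches of Obox2 in GENCODE M21, 62.7% also occur in Obox1, and 56.4% of those of Obox1 occur in Obox2. Obox3 shared 20.2% of its stretches with other genes, mostly its own pseudogenes, and Obox5 shared 18.1%, mostly with Obox7. For Obox6 the share was 5.02% and for Obox8 it was 0. The deposited counts carry the trace of this. Obox1 and Obox2 had a count with decimals, as arises when reads are divided between genes, in all 11 zygotes and all 9 late 2-cell embryos, while Obox6 had whole counts in every one. Obox3 had decimals in 4 zygotes and all 9 late 2-cell embryos, and Obox5 in 3 zygotes and 6 late 2-cell embryos. Values of Obox1 and Obox2 therefore depend on how their common reads were assigned, and their sum is given for each contrast of the early stages. The values of Obox3 and Obox5 carry the same limit in part, that of Obox3 mainly at the late 2-cell stage.

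**Figure D1:**
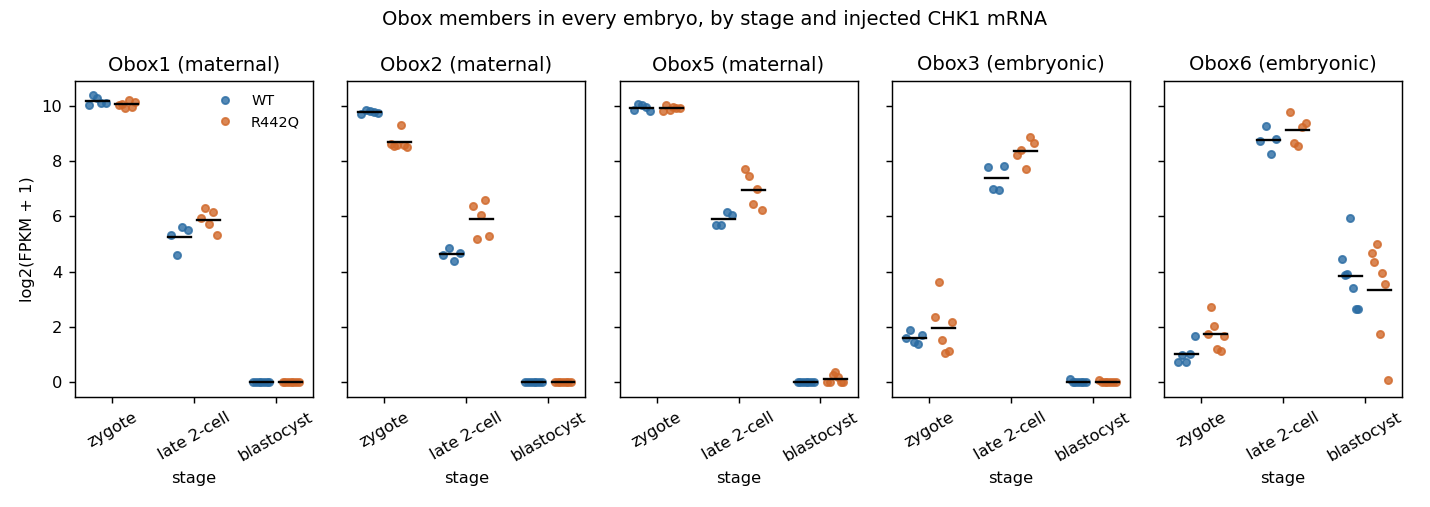
Level of each member as log2(FPKM + 1) in every embryo (points) by stage (zygote, late 2-cell embryo, blastocyst), for WT (5, 4 and 7 embryos) and R442Q (6, 5 and 7 embryos), with the mean of the log values as a bar. Obox1, Obox2 and Obox5 step down from stage to stage, Obox3 peaks at the late 2-cell stage, and Obox6 peaks there and is the 1 member still above 1 FPKM in blastocysts.

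In WT zygotes the 3 maternal members were among the most abundant transcripts, with ranks of 53 to 104 by FPKM among all symbols. Obox1 stood at 1157 ± 120 FPKM, Obox5 at 976 ± 70.5 FPKM and Obox2 at 870 ± 36.9 FPKM (SD, n = 5 each). Obox3 and Obox6 stood at 2.07 ± 0.44 and 1.1 ± 0.647 FPKM. In this order each neighbouring pair overlapped between embryos (Obox1 with Obox5, Obox5 with Obox2, and Obox3 with Obox6), while the gap between maternal and embryonic members did not close in any embryo. The 5 members together made up 0.443% of all FPKM in WT zygotes.

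In WT late 2-cell embryos the order was turned round. Obox6 was the highest, at 447 ± 132 FPKM (SD, n = 4), and the 4 embryos read 424.8, 621.1, 301.1 and 442.2 FPKM. Obox3 followed at 172 ± 55.2 FPKM, with embryos at 217, 127, 121 and 222 FPKM. Obox5 stood at 59.1 ± 10.1, Obox1 at 38.7 ± 10.9 and Obox2 at 23.9 ± 3.32 FPKM. Only Obox1 and Obox2 overlapped between embryos in this order, and every WT embryo had more of each embryonic member than of any maternal one.

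The fall of the maternal members and the rise of the embryonic ones all passed the test in WT embryos (edgeR quasi-likelihood test on zygotes and late 2-cell embryos together, Benjamini-Hochberg adjusted p under 0.05). All 5 members were called, where 61.2% of the 16199 genes tested were called, 36.2% higher and 25% lower, and the median gene changed by 0.34 on the log2 scale. Obox2 fell by 5.29 ± 0.33 (SE, log2; 39.1-fold) with an adjusted p of 6.9e-12. Obox1 fell by 5.05 ± 0.25, or 33.2-fold. The summed counts of Obox1 and Obox2 fell by 5.26 ± 0.26, or 38.3-fold. Obox5 fell by 4.17 ± 0.30, or 18-fold. Obox3 rose by 5.91 ± 0.45, or 60.1-fold, with an adjusted p of 1.6e-10. Obox6 rose by 8.60 ± 0.50, or 389-fold, with an adjusted p of 3.0e-12. Stage and deposited table cannot be told apart in this contrast, and CPM compares each transcript with the rest of its library, not with a fixed amount of RNA.

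The same 5 changes passed in R442Q embryos, where 65.1% of all genes were called, 35.3% higher and 29.8% lower. Obox1 fell by 4.47 ± 0.22 (SE, log2), or 22.1-fold. Obox2 fell by 3.14 ± 0.26, or 8.81-fold, the summed pair fell by 3.87 ± 0.22, or 14.6-fold, and Obox5 fell by 3.06 ± 0.25, or 8.36-fold. Obox3 rose by 6.18 ± 0.41 and Obox6 by 7.64 ± 0.43, or 72.6-fold and 199-fold. The fitted falls of all 3 maternal members were smaller than in WT embryos, and the test of that difference is given after the 2 stages.

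Between zygotes of the 2 injected forms, Obox2 was the member that passed the test. Its count was 953, 1070, 976, 1021 and 976 CPM in the 5 WT zygotes. In the 6 R442Q zygotes it ran from 407 through a median of 434 to 716 CPM. Every R442Q zygote lay below every WT zygote, and the R442Q zygote numbered 4, at 716 CPM, stood nearest to the WT range. Obox2 was lower in R442Q zygotes by 1.92-fold (log2 fold change -0.94 ± 0.13 SE, adjusted p = 4.5e-04, edgeR quasi-likelihood test). Its FPKM was 870 ± 36.9 (SD, n = 5) in WT and 420 ± 101 (SD, n = 6) in R442Q zygotes.

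Obox2 was the 1 called member of 5, against 13.2% of the 12420 genes tested in zygotes and 6.92% called lower. In all, 783 genes were higher and 860 lower. Scaling by total counts in place of the trimmed mean of M values (TMM) turned that split to 502 higher and 1338 lower and moved the median gene from 0.01 to -0.11 on the log2 scale, and Obox2 then stood at -1.06. Groups that did not overlap with R442Q lower were found for 4.67% of genes. The call was kept under every alternative run, with adjusted p values up to 0.0454 for Obox2, that being the fit of zygotes and late 2-cell embryos together.

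Obox1, whose transcript shares most with that of Obox2, gave another picture. It ran from 1060 through 1117 to 1346 CPM in WT and from 1003 through 1087 to 1204 CPM in R442Q zygotes, and the ranges overlapped. Its log2 fold change was 0.01 ± 0.09 (SE, adjusted p = 0.965), and -0.11 with total counts. The share of Obox2 in the counts of the pair was 43.3% to 47.8% in WT zygotes and 26.2% to 37.3% in R442Q zygotes, again without overlap. With both counts summed before the fit, an alternative added after the shared stretches were seen, the pair was lower in R442Q zygotes by 0.35 ± 0.09 (log2 fold change -0.35, adjusted p = 0.0176). The sum was 2183 ± 157 CPM (SD, n = 5) in WT and 1570 ± 176 CPM (SD, n = 6) in R442Q zygotes. The sum does not depend on how reads are divided within the pair, while the placing of the difference on Obox2 does.

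**Figure D2:**
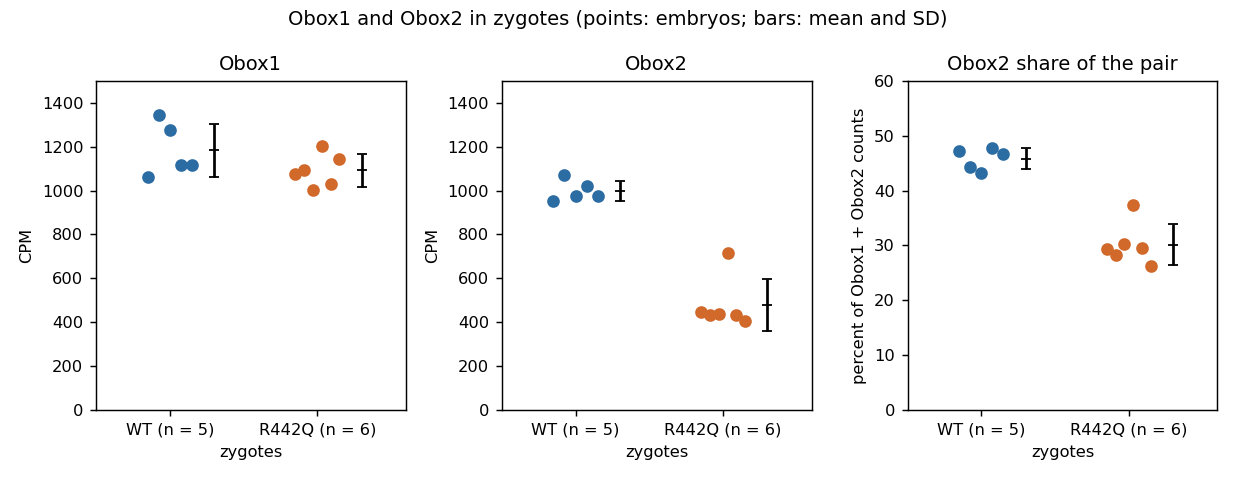
Obox1 and Obox2 in CPM, and Obox2 as a percent of the summed counts of both, in WT (5) and R442Q (6) zygotes, with points for embryos and bars for mean and SD. Obox1 overlaps between the forms, while Obox2 in R442Q zygotes (407 to 716 CPM) lies below the WT zygotes (953 to 1070 CPM).

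Obox5, the third maternal member, ran from 1482 through 1618 to 1718 CPM in WT and from 1463 through 1574 to 1686 CPM in R442Q zygotes. The ranges overlapped almost fully, and the log2 fold change was 0.09 ± 0.08 (SE, adjusted p = 0.515), or -0.03 with total counts. Of the 3 maternal members, Obox2 alone passed the test in zygotes.

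Both embryonic members were low in zygotes of either form. Obox6 stood at 0.742, 1.15, 0.756, 1.22 and 2.6 CPM in the WT zygotes, on 6 to 23 counts. In the R442Q zygotes it ran from 1.38 through 2.68 to 6.54 CPM, on 13 to 48 counts. The ranges overlapped through the WT zygote numbered 5, at 2.6 CPM. The log2 fold change of Obox6 was 1.35 ± 0.51 (SE) and missed the threshold at an adjusted p of 0.0936, and without that WT zygote it was 1.78 with an adjusted p of 0.0469. Obox3 had 25 to 32 counts in WT and 19.2 to 97.8 in R442Q zygotes, with a log2 fold change of 0.67 ± 0.43 (SE, adjusted p = 0.339), or 0.15 for Obox3 without the R442Q zygote numbered 2. That zygote had the most of both, at 13.3 CPM of Obox3 and 6.54 CPM of Obox6, and it also held 45 counts of Obox8, where the other 10 zygotes held 1 to 16.

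At the late 2-cell stage all 5 fitted differences had R442Q higher, and no member passed the test with edgeR fitted to that stage alone. Obox2 stood at 24.6, 29.7, 22.8 and 27.5 CPM (TMM-scaled, as are all late 2-cell CPM here) in WT embryos. In R442Q embryos it stood at 93, 35.6, 52.2, 101 and 39.5 CPM. Every R442Q embryo was above every WT embryo, the reverse of the zygotes, with a log2 fold change of 1.29 ± 0.39 (SE, adjusted p = 0.0751). Obox5 stood at 67.5, 86, 99.3 and 112.2 CPM in WT and at 380, 261, 112.3, 220 and 132 CPM in R442Q embryos. These groups were apart by 1 in the fourth digit only, with a log2 fold change of 1.28 ± 0.38 (SE, adjusted p = 0.0707).

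Obox3 stood at 263, 153, 161 and 305 CPM in WT and at 429, 443, 219, 617 and 530 CPM in R442Q embryos. The R442Q embryo numbered 3 alone fell within the WT range, and the log2 fold change was 1.02 ± 0.35 (SE, adjusted p = 0.109). Obox6 stood at 465.9, 745.4, 353.4 and 537.8 CPM in WT and at 1169, 486, 397, 725 and 838 CPM in R442Q embryos, which overlapped widely. Its log2 fold change was 0.46 ± 0.35 (SE, adjusted p = 0.498). Obox1 ran from 23.6 to 46.4 CPM in WT and from 40.4 to 72.2 CPM in R442Q embryos, with a log2 fold change of 0.67 ± 0.34 (SE, adjusted p = 0.282). The summed counts of Obox1 and Obox2 differed by 0.96 ± 0.31 on the log2 scale (SE, adjusted p = 0.0925).

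**Figure D3:**
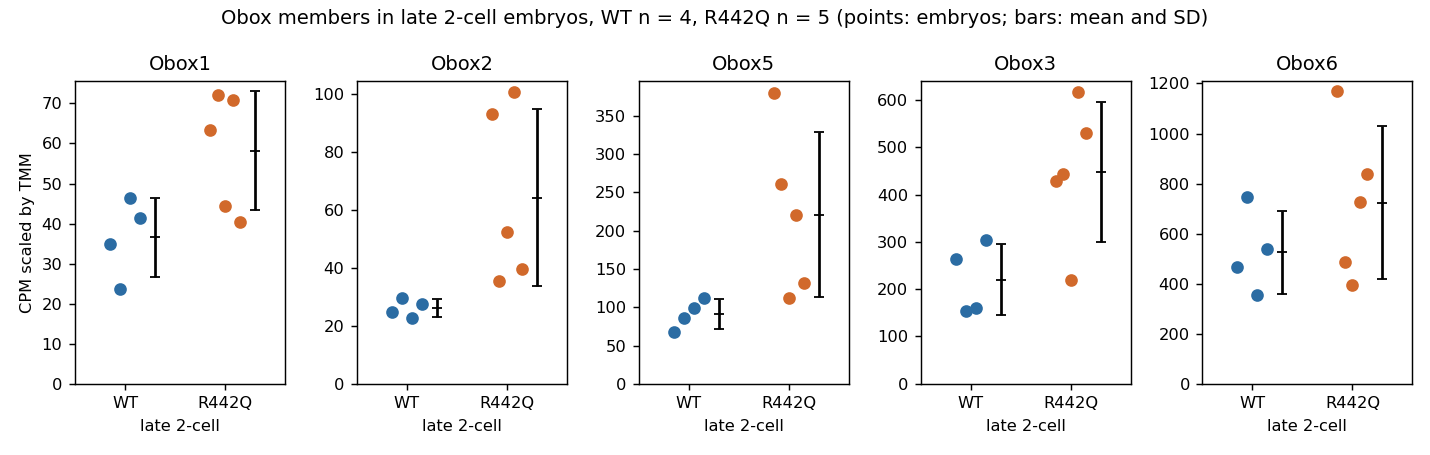
TMM-scaled CPM of each member in WT (4) and R442Q (5) late 2-cell embryos, with points for embryos and bars for mean and SD, each panel on its own axis from 0. Obox2 in R442Q embryos (35.6 to 101 CPM) lies above WT (22.8 to 29.7 CPM), Obox5 touches (112.3 against 112.2 CPM), and the other 3 members overlap.

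The count of 0 of 5 members from edgeR stands against 4.18% of the 13883 genes called. At an unadjusted p under 0.05 there were 3 of 5 (Obox2, Obox3 and Obox5), against 21% of all genes, and DESeq2, which called 12% of all genes, called the same 3 members with adjusted p values of 0.0186, 0.0314 and 0.0115. With zygotes in the same edgeR fit, 15.5% of all genes were called, and Obox1 (adjusted p = 0.0466), Obox2 (adjusted p = 0.00325) and Obox5 (adjusted p = 0.00251) were among them. The median of the 5 log2 fold changes was 1.02, beside 0.07 for all genes tested, 0.70 for 32 maternal oocyte genes, 0.68 for 31 genes of the 2-cell activation wave and 0.10 for 36 other homeobox genes. R442Q groups above WT without overlap were found for 2 of the 5 members and 4.39% of all genes. Leaving out the R442Q embryo numbered 3 raised the called members to 2, Obox5 (adjusted p = 0.0273) and Obox3 (adjusted p = 0.0322), and the share of all genes called to 6.76%.

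The late 2-cell log2 fold changes were smaller after a correction for transcript length and GC content. The members' longest transcripts had 1344 to 2287 bases and a GC content of 41.9% to 45.2%, both below the medians of the tested genes, 3101 bases and 48.9%. With a trend on length and GC removed together from the counts, the late 2-cell log2 fold change of Obox2 was 0.40 (adjusted p = 0.712), that of Obox5 was 0.60 (adjusted p = 0.526) and that of Obox3 was 0.71 (adjusted p = 0.426). Obox1 (-0.13) and Obox6 (-0.37) changed sign. In zygotes the same correction left Obox2 at -1.01 with an adjusted p of 3.6e-04. The part of length or GC alone was not tested. The 6 late 2-cell markers summed to 1627, 136, 741 and 569 CPM in WT and to 1055, 3273, 3240, 2768 and 1353 CPM in R442Q embryos. These sums overlapped, with 3 R442Q embryos above every WT embryo, and their part in the Obox values was not tested.

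**Figure D4:**
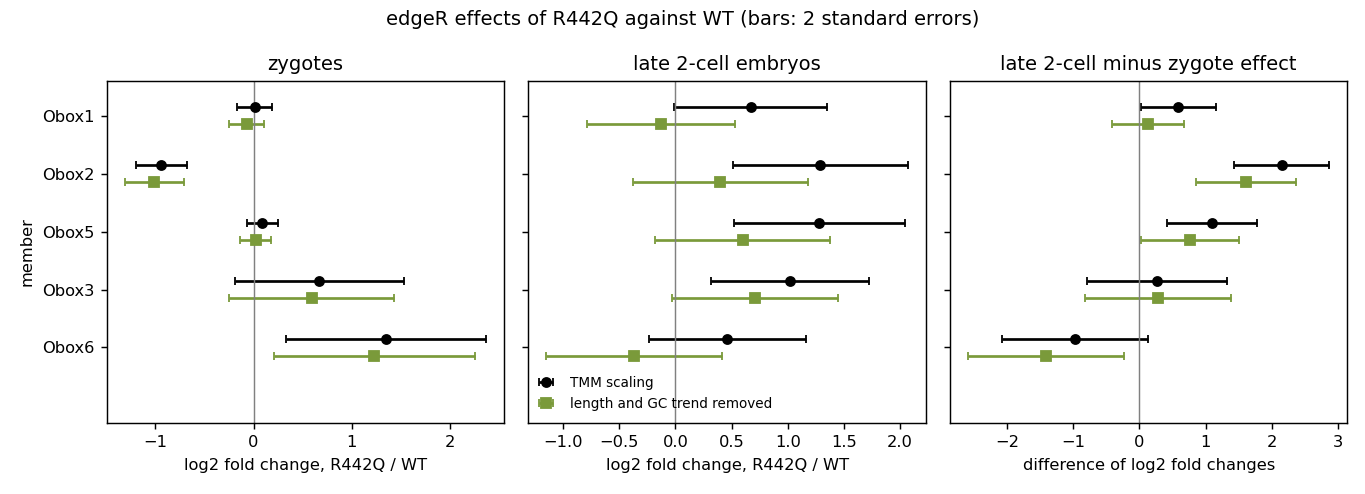
Log2 fold changes of R442Q against WT from edgeR in zygotes and in late 2-cell embryos, and the late 2-cell minus the zygote effect, for each member, with bars of 2 standard errors, under TMM scaling (black circles) and with the length and GC trend removed (green squares). Obox2 lies left of 0 in zygotes under both (-0.94 and -1.01), while the late 2-cell values move toward 0 or below when the trend is removed (Obox2 from 1.29 to 0.40).

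The difference between the 2 stages was tested directly as the late 2-cell effect minus the zygote effect. Obox2 and Obox5 passed, 2 of 5 members, against 10.1% of all genes and 3.07% called in this direction. For Obox2 the difference was 2.15 ± 0.36 (SE, log2) with an adjusted p of 5.9e-04, and for Obox5 it was 1.10 ± 0.34 with an adjusted p of 0.0396. Put as stage changes, Obox2 fell 39.1-fold in WT and 8.81-fold in R442Q embryos, and the summed Obox1 and Obox2 counts fell 38.3-fold and 14.6-fold. Obox1 (0.59 ± 0.28, adjusted p = 0.194), Obox3 (0.27 ± 0.53, adjusted p = 0.808) and Obox6 (-0.97 ± 0.55, adjusted p = 0.288) did not pass.

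The scaling shifts this contrast for all genes. The median gene lay at -0.16 with TMM, where 497 genes were higher and 1142 lower, and at -0.01 with DESeq2's size factors, where 707 were higher and 917 lower. Obox2 and Obox5 were then at 2.32 and 1.27 and kept their calls. The call of Obox2 was also kept with the length and GC trend removed (1.61, adjusted p = 0.0155). The summed counts of Obox1 and Obox2, which test the pair and not Obox2, had an interaction of 1.39 ± 0.28 (adjusted p = 0.00357). The call of Obox5 was not kept: with the trend removed it was 0.77 with an adjusted p of 0.22. It also missed the threshold, at values of 1.08 to 1.23 and adjusted p values of 0.0502 to 0.0648, in the fits of Obox5 without WT zygote 1, 3, 4 or 5 or without WT late 2-cell embryo 1 or 2.

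Blastocysts kept 1 member. Obox6 read 20.9, 13.6, 14, 59.9, 9.62, 5.26 and 5.28 FPKM in the WT embryos numbered 1 to 7, and 24.7, 19.5, 30.6, 2.32, 14.6, 10.7 and 0.06 FPKM in the R442Q embryos. The groups overlapped, with the WT embryo at 59.9 FPKM above every R442Q embryo and the R442Q embryos at 2.32 and 0.06 FPKM below every WT embryo. Obox6 differed by -0.50 ± 0.71 on the log2(FPKM + 1) scale (SE, limma adjusted p = 0.918, and two-sided exact permutation p = 0.556 over 7 against 7 embryos). The lowest value, 0.06 FPKM, came from the R442Q embryo with the fewest symbols above 0, 12337 where the other 13 blastocysts had 13383 to 18108, and without it the difference was 0.04. The WT embryo at 59.9 FPKM had the lowest trophectoderm marker sum of the WT blastocysts, 3210 FPKM, and the R442Q embryo at 30.6 FPKM had the lowest of all, 1250 FPKM. Low marker sums also went with little Obox6, as in the WT embryo at 9.62 FPKM (3975 FPKM of markers) and the R442Q embryos at 2.32 and 0.06 FPKM (4163 and 4298 FPKM). The part of these markers and of detection in the Obox6 values was not tested. In a library of a whole embryo, fewer cells holding a transcript and less of it per cell cannot be told apart.

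Obox1 and Obox2 were listed at 0 in all 14 blastocysts. Obox3 was listed at 0.08 FPKM in 1 WT and 0.05 FPKM in 1 R442Q blastocyst and at 0 in the other 12. Obox5 was at 0 in every WT blastocyst and at 0.21, 0.28 and 0.14 FPKM in 3 of the R442Q blastocysts. No member but Obox6 passed the filter of 1 FPKM in at least 7 blastocysts, so the 0 of 1 tested member called by limma stands beside 0.00885% of the 11297 genes. At an unadjusted p under 0.05 it was again 0 of 1, beside 7.4% of all genes. FPKM was normalised separately for each stage, so the blastocyst levels stand beside the earlier ones without a test, 18.4 ± 19.1 FPKM (SD, n = 7) for Obox6 in WT blastocysts and 447 ± 132 FPKM (SD, n = 4) before, at the late 2-cell stage. The WT blastocyst mean is raised by the embryo at 59.9 FPKM, and the median was 13.6 FPKM.

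The makeup of the family can be followed as the share of the 5 members' FPKM that came from Obox3 and Obox6. It was 0.106% ± 0.0326 in WT and 0.266% ± 0.216 in R442Q zygotes. At the late 2-cell stage it was 82.9% ± 5.41 in WT and 77.9% ± 6.05 in R442Q embryos. In blastocysts it was 100% in every WT embryo and 98.2% ± 3.99 in R442Q embryos (SD over 5, 6, 4, 5, 7 and 7 embryos in turn). The late 2-cell shares of the 2 forms overlapped, from 75.4% to 88% in WT and from 71.9% to 87.6% in R442Q. Over the same stages the members' part of all FPKM in WT embryos went from 0.443% to 0.101% and to 0.00171%.

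Obox7 and Obox8, the other 2 Obox symbols in the early tables, followed the maternal and the embryonic members in turn. Obox7 stood at 177 ± 32 FPKM in WT zygotes (SD, n = 5) and 11.1 ± 6.07 FPKM at the late 2-cell stage (SD, n = 4), and it fell by 4.02 ± 0.48 (SE, log2, adjusted p = 1.8e-07). Obox8 had 1 to 11 counts in WT zygotes and stood at 298 ± 66.7 FPKM in WT late 2-cell embryos, and it rose by 8.87 ± 0.82 (SE, log2, adjusted p = 3.5e-09). Neither differed between the injected forms past the threshold at the late 2-cell stage (adjusted p = 0.587 for Obox7 and 0.286 for Obox8), nor did Obox7 in zygotes (adjusted p = 0.893). The blastocyst table listed 55 Obox symbols, 48 of them pseudogenes, of which 14 were above 0 in any blastocyst and none reached 1 FPKM in 4 of them. The annotations behind the tables therefore differed.

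The length of transcript behind the counts varied between embryos. The count divided by FPKM and by the library total gives the effective length used for a gene in that embryo. For Obox3 it was 1282 to 2111 bases in WT and 1175 to 2071 bases in R442Q zygotes, and 1135 to 1375 bases over all late 2-cell embryos, a range that holds 3 of the 11 zygotes. The R442Q zygote with the most Obox3 had the shortest length of the zygotes, 1175 bases. For Obox1 it was 1016 to 1043 bases in zygotes and 911 to 1007 bases in late 2-cell embryos, without overlap. For Obox2 it was 1094 to 1169 bases in zygotes. At the late 2-cell stage it was 1065 to 1190 bases in WT and 860 to 1025 bases in R442Q embryos, without overlap. For Obox6 the same quantity lay between 1147 and 1217 bases in all 20 embryos. The forms were apart here too at the late 2-cell stage, at 1198 to 1217 bases in WT and 1147 to 1183 bases in R442Q embryos. GENCODE M21 lists 8 transcripts for Obox3 and 1 for Obox6, and the zygote lengths rest on 19.2 to 97.8 counts.

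**Figure D5:**
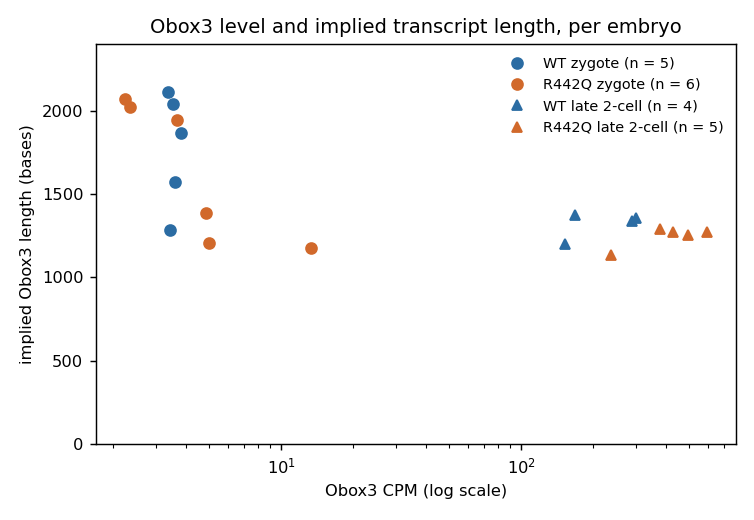
Effective length of Obox3 in bases, from count and FPKM, against its CPM on a log axis, with 1 point per embryo for WT and R442Q zygotes (circles) and late 2-cell embryos (triangles). Zygotes spread from 1175 to 2111 bases at low CPM, and late 2-cell embryos lie between 1135 and 1375 bases at high CPM.

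Beyond the family, 60 homeobox genes of oocytes and early embryos were set beside the members. Of 46 tested between zygotes and late 2-cell embryos in WT, 14 rose and 13 fell, or 30.4% and 28.3% of them, where 36.2% and 25% of all genes did, with a median log2 change of 0.61 against 0.34 for all genes. Esx1, a homeobox gene of the X chromosome, rose by 8.83 ± 1.07 (SE, log2, adjusted p = 2.4e-07), and Crxos, another divergent homeobox gene, rose by 8.74 ± 0.57 (adjusted p = 1.5e-11). Duxf3, a double homeobox gene, fell by 4.84 ± 1.09 (adjusted p = 5.5e-04), and Nobox, an oocyte homeobox factor, fell by 4.23 ± 0.26 (adjusted p = 6.1e-12). Between the injected forms, 3 of 35 were higher and 0 lower in R442Q zygotes (6.3% and 6.92% of all genes), led by Prrx1 (3.30 ± 0.79, adjusted p = 0.0115), and 1 was higher (Hesx1) and 1 lower (Zhx3) of 36 in late 2-cell embryos (1.22% and 2.95% of all genes). Prrx1 was near 0 in both forms, with medians of 0 FPKM in WT and 0.515 FPKM in R442Q zygotes. In the interaction 0 of 46 were higher and 3 lower, where 3.07% of all genes were higher and 7.05% lower, counts near those shares. The median of the list was lower there, at -0.67 against -0.16 for all genes.

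Maternal oocyte genes and genes of the 2-cell activation wave give the setting of the 2 groups of members. From WT zygotes to WT late 2-cell embryos 30 of 33 maternal genes fell and 1 rose, and 26 of 31 genes of the 2-cell list rose and 3 fell, where 36.2% of all genes rose and 25% fell. Of 32 maternal genes tested in zygotes, 11 were lower in R442Q, where 6.92% of all genes were, among them Mos, which holds the egg in meiosis (-1.52 ± 0.35, adjusted p = 0.00863), and Zp3 of the zona pellucida (-1.35 ± 0.17, adjusted p = 2.0e-04). Another 4 were higher, where 6.3% of all genes were, and the list's median was -0.48 against 0.01 for all genes. In the interaction 9 of 33 maternal genes were higher and 0 lower (3.07% and 7.05% of all genes), with a median of 0.98 against -0.16, led by Ooep of the subcortical maternal complex (3.04 ± 0.33, adjusted p = 7.2e-06). Of 26 genes of the 2-cell list tested in zygotes, 12 were higher and 1 lower in R442Q (6.3% and 6.92% of all genes), led by Gm5662 (4.71 ± 0.93, adjusted p = 0.00345) and Zscan4f (4.65 ± 0.87, adjusted p = 0.00248). The summed level of the 2-cell list did not follow that count, at 2666 to 3213 CPM in WT and 2514 to 2953 CPM in R442Q zygotes, which overlapped. Gm5662 and Zscan4f were low in zygotes. The medians of Gm5662 were 0.22 FPKM in WT and 2.05 FPKM in R442Q zygotes, and those of Zscan4f were 0.56 and 5.57 FPKM. In the interaction 1 of 31 genes of the 2-cell list was higher and 4 lower (3.07% and 7.05% of all genes), led among the lower by Spz1 (-3.78 ± 1.05, adjusted p = 0.0238). The median of this list in the interaction was -0.67 against -0.16 for all genes. Spz1 was near 0 in zygotes, with medians of 0 FPKM in WT and 0.825 FPKM in R442Q. In late 2-cell embryos, where 4.18% of all genes were called, Ooep was the 1 called of 32 maternal genes (2.29 ± 0.35, adjusted p = 0.00649).

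The genes that varied most like each member were ranked by the correlation of log2 CPM over the 20 zygotes and late 2-cell embryos after the mean of each of the 4 groups was subtracted. These are descriptions, since the values of 2 genes in an embryo come from the same library and depth. For Obox1 they were Il7 (r = 0.93), Obox7 (0.90) and Ppp3r1 (0.90), and for Obox2 they were Hmgxb4 (0.89), Gtf2a2 (0.89) and Ifit1bl2 (0.85). Obox5 was most like Fbxw26 (0.96), Ogdhl (0.93) and Mphosph6 (0.91). Obox3 was most like the predicted genes Gm5890 (0.83), Gm2016 (0.82) and Gm10662 (0.80). Obox6 was most like Obox8 (0.85), followed by Grb2 (0.81) and Mien1 (0.81). Obox1 and Obox2 were not among each other's 3 nearest genes, although 56.4% of the 50-base stretches of Obox1 occur in Obox2.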

How the data were processed

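Single mouse embryos were grouped by stage and injected mRNA from their titles. Estimated counts per gene, not normalised, were deposited by the authors and rounded to whole numbers here. The submitters' processing notes name RSEM and mm10 without giving the step of each. FPKM values, also deposited by the authors, cover all 3 stages and were normalised per stage. The aligner, the annotation and the use of strand are not given in the sources used here. No deposited column was left unused.

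Counts were tested in R 4.3.3 with edgeR 4.0.16 (quasi-likelihood, TMM, filterByExpr with a minimum count of 10), per stage and over 4 groups for stage changes and the interaction. Blastocysts were tested with limma 3.58.1 on log2(FPKM + 1) for genes of at least 1 FPKM in at least 7 embryos. Benjamini-Hochberg adjustment ran over all genes tested, at a threshold of 0.05. Scripts were tested on simulated data. Alternatives were DESeq2 1.42.0, other scalings, filters and pseudocounts, a length and GC trend, a replicate block, leaving out each embryo, and summed Obox1 and Obox2 counts, the last chosen after seeing the data. CPM without further words is a count over the library total. Counting error is smallest for the abundant members; reads amplified without molecular barcodes are not separate molecules.

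The members and gene lists were chosen with earlier results of these data known. The 5 members and other expressed Obox genes are always named, with up to 2 examples per list and direction (largest fold change among those called) and the 3 genes most correlated with each member. Symbols were matched to GENCODE M21 (98.41% of the early and 92.06% of the blastocyst symbols) for positions, GC content and transcripts. No protein sequences were used. A result of the 2-cell list at the late 2-cell stage is not reported here.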

Additional observations from a re-analysis of the deposited data

Results flagged for a closer look

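Single embryos stood apart from their group, by the gap to the nearest embryo over the group's range, in 6 of 25 groups of 4 to 7 embryos examined. In 2 of the 6, both Obox3 in blastocysts, 1 embryo was above 0 and the others at 0, so the gap fills the range by construction. Without those, it was 4 of 23 groups, where chance gives about 1 in 20. Obox2 was 716 CPM in R442Q zygote 4, above the other R442Q zygotes. Obox3 was 13.3 CPM in R442Q zygote 2, and Obox6 was 2.6 CPM in WT zygote 5. Obox6 was 59.9 FPKM in WT blastocyst 4. Obox3 was listed at 0.05 FPKM in R442Q blastocyst 1 and at 0.08 FPKM in WT blastocyst 1, where the other blastocysts of each group are listed at 0.

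The difference between R442Q and WT differed between late 2-cell embryos and zygotes for Obox2, by 2.15 ± 0.36 on the log2 scale (edgeR interaction, adjusted p = 5.9e-04), and for Obox5, by 1.10 ± 0.34 (adjusted p = 0.0396). The call of Obox5 was not kept with the length and GC trend removed (0.77, adjusted p = 0.22), with the replicate block or in several fits without 1 embryo. For Obox2 all 6 R442Q zygotes lay below and all 5 R442Q late 2-cell embryos above the WT embryos of their stage.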

How the results depend on the processing

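Over Obox1 to Obox3 and Obox5 to Obox8, 819 of 864 log2 fold changes under alternatives kept their direction and their side of the threshold, 24 changed sign, 13 passed the threshold where the value reported does not, and 8 missed it where the value reported passes. Of the 864, 563 came from fits without 1 embryo. The fit of summed Obox1 and Obox2 counts is entered under both genes for each contrast of the early stages, although it tests the pair. The cause was not tested except where summing or fewer embryos define it.

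In zygotes, Obox1 (0.01) changed sign with total counts (-0.11), no filter (-0.02), the length and GC trend removed (-0.07), limma on FPKM (-0.12), a replicate block with that trend removed (-0.04) and the Obox2 counts added (-0.35), and ran from -0.03 to 0.05 without 1 embryo. Obox5 was -0.03 with total counts and -0.03 with limma on FPKM, and Obox7 ran from -0.08 to 0.03 without 1 embryo. Members called were 1 to 2 without 1 embryo, in fits that called 8.88% to 14.2% of all genes. At the late 2-cell stage, with the trend removed, Obox1 was -0.13, Obox6 -0.37 and Obox7 -0.19, and with the replicate block added, Obox1 -0.05, Obox6 -0.51 and Obox8 -0.22. Members called there were 3 with DESeq2 (12% of all genes), 3 in the fit with zygotes (Obox1, Obox2 and Obox5; 15.5%), and 0 to 2 without 1 embryo (0.967% to 6.76%). In the interaction, members called were 1 with the trend removed (5.83% of all genes), 1 with the replicate block (6.24%) and 1 to 3 without 1 embryo (6.76% to 14.6%). DESeq2 and the fits without R442Q late 2-cell embryo 3 or 5 added Obox1. Obox8 was 0.23 with limma on FPKM and -1.07 to 0.81 without 1 embryo, turned by R442Q zygote 2. In blastocysts Obox6 ran from -0.78 to 0.04 without 1 embryo. Counting every Obox symbol put the embryonic share at 90% in R442Q and 97.6% in WT blastocysts. There Obox8 and the pseudogenes named after Obox3, Obox6 or Obox8 were counted with the embryonic members.

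Embryos of the 2 forms with the same replicate number showed no steady correlation (-0.057 to 0.062 in zygotes, -0.144 to 0.206 in late 2-cell embryos, -0.168 to 0.204 in blastocysts). The replicate numbers come from the titles, and for some zygotes and late 2-cell embryos they differ from the numbers in the descriptions. Pairing by the description numbers or by session was not tested. With the replicate block Obox5 had an interaction of 1.29 (adjusted p = 0.0756), and Obox2 was -0.92 in zygotes (adjusted p = 0.00158) with its call kept. Genes called in the whole table fell from 1643 to 270 for zygotes in the joint fit. For late 2-cell embryos they were 580, and 1664 with DESeq2, 2507 in the joint fit, 889 unfiltered, 134 with the trend removed, 49 with the block, 8 with both and 142 to 891 without 1 embryo. In the interaction they were 1639, and 945 with the trend removed, 988 with the block and 1089 to 2311 without 1 embryo, and in blastocysts 1, and 0 to 5 with other settings and 0 to 30 without 1 embryo. Depth limits Obox3, Obox6 and Obox8 in zygotes, where counts were few.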
